A study of Homo sapiens with 6 samples.

Results

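Of the 58735 genes in the count table, 47 protein-coding genes carried a proteasome subunit name, PSM followed by a letter from A to G and a number, once PSMB8 and PSMB9 were set aside. They comprised 17 genes of the 20S core, 17 of the 19S cap, 12 for activators and assembly factors, and PSMC3IP, which matched by name only and encodes a recombination factor. The cells were LoVo, an established human colorectal cancer line, transfected with a negative control siRNA (si-NC, 3 libraries) or with an siRNA against the splicing factor SRSF11 (si-SRSF11, 3 libraries). Polyadenylated RNA was read as paired 150-base reads, and the deposited values were raw counts per gene. The labels do not say which SRSF11 siRNA was used, nor whether the 3 samples of a group were separate cultures, so the p-values measure only the spread between these samples, which may be technical.

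The proteasome is the protease that degrades proteins tagged with ubiquitin. Its barrel, the 20S core, stacks rings of α subunits, which form the gate, and rings of β subunits, which hold the cutting sites. The 19S cap sits on the barrel, binds ubiquitin chains, removes them and threads the substrate in with a ring of ATPases. Other activators can take the place of the cap, and dedicated chaperones help to build the core and the base of the cap. Subunit genes are known to be raised together by the transcription factor NFE2L1 (NRF1) when proteasome activity falls.

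Library totals ran from 14369525 to 16685719 counts. Levels are given as CPM, counts of a gene scaled to library size with TMM factors. SRSF11 itself (chr1:70205682-70253052) was measured at 87.6, 84.3 and 87.5 CPM in si-NC and at 50.4, 48.5 and 49.5 CPM in si-SRSF11. Its level fell by 0.81 on the log2 scale (SE 0.05, edgeR quasi-likelihood test, adjusted p = 6.1e-10), in the direction that the labels give. The bracketing of library names in a picture of the study has the conditions the other way round, and the labels were used here. All 10 colorectal epithelial marker genes had counts, with a summed level of 5610 to 5944 CPM in si-NC and 5717 to 6071 CPM in si-SRSF11. KRT20 was the lowest of them, at 0.414 to 1.28 CPM, and CDX1 and CDX2 rose. Of 5 markers of blood, stromal and endothelial cells, PTPRC and DCN were at 0 in every library, and the 5 summed to 12.8 to 14.01 CPM in si-NC and to 11.3 to 14.3 CPM in si-SRSF11, nearly all from COL1A1.

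To ask whether proteasome genes moved together after SRSF11 knockdown, every gene that reached 10 counts or more in 3 or more libraries was tested, and 45 of the 47 members passed this filter. PSMA8 and PSMB11, the testis and thymus forms of an α and a β subunit, had at most 2 counts in any library and were not tested. In the whole table, 3886 of 15801 tested genes had an adjusted p under 0.05, which is 24.6%, with 13.2% higher and 11.4% lower in si-SRSF11. Among the proteasome members, 11 of 45 were called (24.4%), a share near that background, with 8 higher and 3 lower. Scaling by library size alone called 5 higher and 5 lower members, and 1585 higher and 2289 lower genes in the whole table against 2081 and 1805 with TMM. The median log2 fold change of the 45 members was 0.01, beside 0.00 over all tested genes. With library size scaling the median was -0.028 for the members and -0.033 over all tested genes. The groups did not overlap for 18 of the 45 members, while 38.8% of all tested genes had no overlap. Of the 12770 tested protein-coding genes alone, 3502 were called (27.4%) and 5341 had no overlap. The members' log2 fold changes ran from -0.37 to 0.38. No member reached an absolute log2 fold change over 1 with an adjusted p under 0.05, a limit that 1.09% of all tested genes passed.

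**Figure D1:**
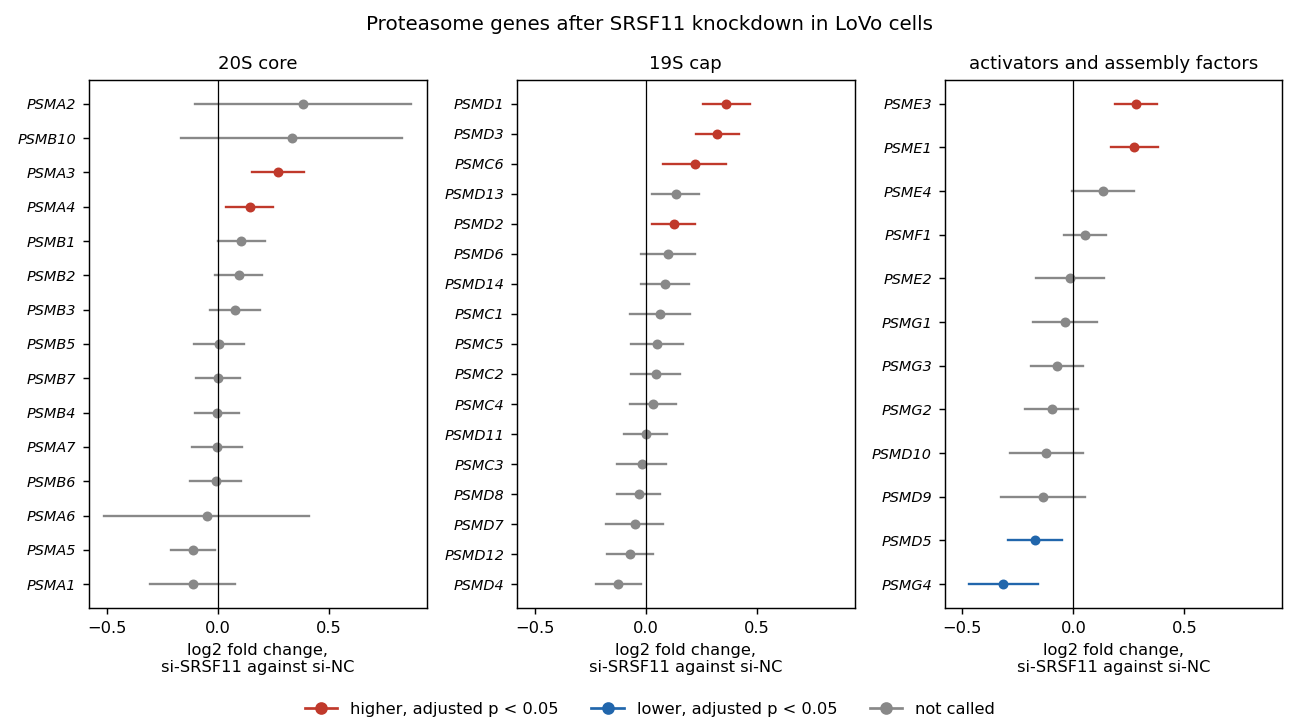
Log2 fold change of the 44 tested proteasome genes in si-SRSF11 against si-NC (horizontal axis), with 95% confidence intervals, sorted within the 20S core, the 19S cap and the activators and assembly factors; red and blue mark genes called higher and lower. In the core PSMA3 and PSMA4 are called and PSMA2, PSMB10 and PSMA6 have wide intervals, the called PSM-named cap genes are all higher, and the third panel has calls at both ends.

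In the 20S core, 2 of 15 tested genes rose (13.3%), both in the α ring, beside 13.2% of all tested genes called higher and 24.6% called. The median log2 fold change was 0.01. With library size scaling this median was -0.028, beside -0.033 over all tested genes. PSMA3 (chr14:58244831-58272012), an α ring subunit, was at 61.6, 62.0 and 57.8 CPM in si-NC and at 70.6, 71.2 and 77.0 CPM in si-SRSF11. Every si-SRSF11 library lay above every si-NC library. Its mean went from 60.4 ± 2.32 to 73.0 ± 3.54 CPM (SD, n = 3), a log2 fold change of 0.27 (SE 0.06, adjusted p = 0.0013). PSMA4 (chr15:78540405-78552419), another α subunit, was at 112, 105 and 113 CPM in si-NC and at 115, 123 and 127 CPM in si-SRSF11. The lowest si-SRSF11 library was close to the highest si-NC library, and the log2 fold change was 0.14 (SE 0.05, adjusted p = 0.044). The PSMA4 call held in 1 of the 6 fits that left out a library, the one without si-SRSF11 replicate 1, and the adjusted p of the others reached 0.20. It held in 2 of 8 other settings.

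The β ring, which holds the active sites, had 0 of 8 tested genes called by edgeR, 0 at an unadjusted p under 0.05 and 0 without overlap, and DESeq2 called 0 as well, beside the 24.6% of all tested genes that were called and the 38.8% without overlap. PSMB5, the chymotrypsin-like subunit, was at 212, 202 and 212 CPM in si-NC and at 191, 215 and 223 CPM in si-SRSF11. Its log2 fold change was 0.01, with a 95% interval from -0.10 to 0.12. For PSMB6, the caspase-like subunit, the values were 97.4, 96.0 and 93.3 CPM in si-NC and 89.1, 93.6 and 101.9 CPM in si-SRSF11, a log2 fold change of -0.01 (95% interval -0.12 to 0.10). PSMB7, the trypsin-like subunit, was at 185, 192 and 194 CPM in si-NC and at 183, 195 and 193 CPM in si-SRSF11, with an interval from -0.10 to 0.10. In all 3 genes the si-SRSF11 libraries spread around the si-NC libraries. PSMB10, the form that replaces PSMB7 in immunoproteasomes, had only 40, 45 and 43 counts in si-NC and 50, 40 and 82 counts in si-SRSF11. Its log2 fold change of 0.33 (95% interval -0.16 to 0.83, adjusted p = 0.34) rested on si-SRSF11 replicate 3 and was -0.005 without it.

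The other tested core genes were not called. In the α ring, PSMA5 was at 104 to 110 CPM in si-NC and at 98.1 to 100.7 CPM in si-SRSF11, without overlap, and its adjusted p was 0.10, or 0.030 (called lower) with library size scaling. PSMA1, PSMA2, PSMA6 and PSMA7 had log2 fold changes from -0.11 to 0.38, where the largest, that of PSMA2, came from 27 to 46 counts per library. In the β ring, PSMB1, PSMB2, PSMB3 and PSMB4 ran from -0.002 to 0.11. The core genes summed to 1783 ± 22.9 CPM in si-NC and 1827 ± 96.4 CPM in si-SRSF11 (SD, n = 3), and the groups overlapped.

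The 19S cap had 4 of 17 genes higher and 0 lower, with a median log2 fold change of 0.05, and 7 genes without overlap. The called share of 23.5% was near the 24.6% of all tested genes, of which 38.8% had no overlap. The 0 lower calls came from edgeR with TMM, and library size scaling, upper-quartile scaling and the fit on protein-coding genes alone each called 1 lower. At an unadjusted p under 0.05 edgeR had 1 lower gene among the 17, PSMD4, and DESeq2 had 0 lower calls. ADRM1 and SEM1, cap subunits outside the naming rule, are given below with the other pathway genes. ADRM1 was called lower (log2 fold change -0.25) and SEM1 higher (0.39). PSMD1 (chr2:231056864-231172827) and PSMD2 (chr3:184298709-184309054) encode the large scaffold subunits of the base. PSMD1 was at 70.4, 70.7 and 72.9 CPM in si-NC and at 91.3, 93.6 and 90.4 CPM in si-SRSF11. The gap between the groups was wider than the spread within either, and the log2 fold change of 0.36 was the highest of the 17 cap genes (SE 0.05, adjusted p = 1.7e-05). PSMD2, the most abundant cap gene in CPM, was at 337, 332 and 332 CPM in si-NC and at 348, 376 and 369 CPM in si-SRSF11. The groups did not overlap, and the log2 fold change was 0.13 (SE 0.05, adjusted p = 0.0496). This call held in 1 of the 6 fits that left out a library, the one without si-SRSF11 replicate 1, and in 3 of 8 other settings.

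PSMD3 (chr17:39980797-39997960), a structural subunit of the lid, was at 123, 122 and 123 CPM in si-NC and at 148, 157 and 157 CPM in si-SRSF11. The si-NC libraries lay within 2 CPM of each other, and every si-SRSF11 library was above them. The log2 fold change was 0.32 (SE 0.05, adjusted p = 2.5e-05). PSMC6 (chr14:52707172-52728587), a subunit of the ATPase ring, was at 31.5, 31.9 and 30.8 CPM in si-NC and at 35.9, 35.7 and 38.3 CPM in si-SRSF11. It rose by 0.22 on the log2 scale (SE 0.07, adjusted p = 0.021), and the call was lost without si-NC replicate 1, si-NC replicate 3 or si-SRSF11 replicate 3, at adjusted p up to 0.080, and with library size scaling or DESeq2.

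PSMD4 and PSMD14 were not called. PSMD4, which binds ubiquitin chains, was at 204, 192 and 202 CPM in si-NC and at 180, 179 and 191 CPM in si-SRSF11. The groups did not overlap, in the opposite direction to PSMD1, PSMD2 and PSMD3, and the log2 fold change was -0.12 (SE 0.05, adjusted p = 0.067). With library size scaling, or without si-SRSF11 replicate 3, the same gene was called lower, at an adjusted p of 0.016 in either case. PSMD14, the deubiquitinase of the lid, was at 73.8 to 75.9 CPM in si-NC and at 76.9 to 82.1 CPM in si-SRSF11, with a log2 fold change of 0.09 (adjusted p = 0.24). PSMD8, a lid subunit with the highest level per length in the cap (65.1 CPM per kb of exon), had a log2 fold change of -0.03 (adjusted p = 0.67). Of the remaining cap genes, PSMD13 had an adjusted p of 0.058 at a log2 fold change of 0.14 and no overlap, and was called higher without si-SRSF11 replicate 1 or 2, at adjusted p down to 0.030, while its log2 fold change was 0.07 without si-SRSF11 replicate 3. PSMC1, PSMC2, PSMC3, PSMC4, PSMC5, PSMD6, PSMD7, PSMD11 and PSMD12 ran from -0.07 to 0.10 and overlapped between groups. The 17 cap genes summed to 2014 ± 22.1 CPM in si-NC and 2105 ± 74.9 CPM in si-SRSF11 (SD, n = 3), with overlap.

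**Figure D2:**
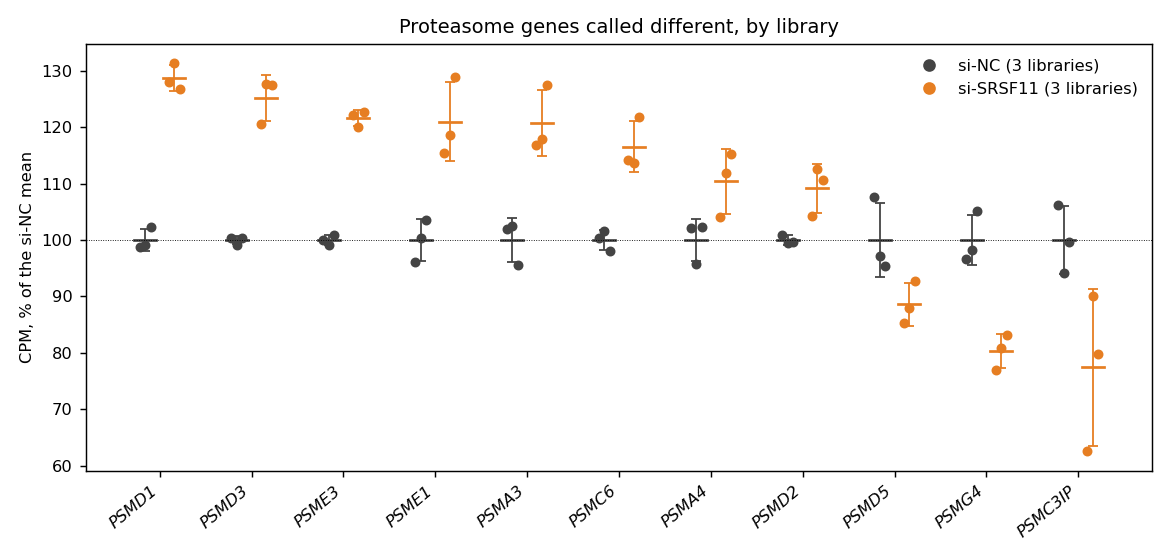
CPM of the 11 members with an adjusted p under 0.05 (horizontal axis), as a percentage of the si-NC mean of each gene (vertical axis). Points are libraries, bars are means and whiskers are SD of 3 libraries. The groups do not overlap in any of the 11 genes, and come closest in PSMA4, PSMD2, PSMD5 and PSMC3IP. The genes were picked by their test, so the lack of overlap adds little to it, and 38.8% of all tested genes have no overlap.

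Of the 12 activator and assembly factor genes, 2 activator genes were called higher and 2 chaperone genes lower, a share of 33.3% beside the 24.6% of all tested genes, of which 13.2% were higher and 11.4% lower. PSME3 (chr17:42824385-42843758), the nuclear activator PA28γ, was at 134, 133 and 135 CPM in si-NC and at 164, 161 and 164 CPM in si-SRSF11. The SD was 1.27 CPM in si-NC and 1.81 CPM in si-SRSF11, far less than the gap, and the log2 fold change was 0.28 (SE 0.05, adjusted p = 9.4e-05). PSME1 and PSME2 are neighbours on chromosome 14 and encode the subunits of the interferon-inducible activator PA28αβ. PSME1 (chr14:24136158-24138967) was at 122, 127 and 131 CPM in si-NC and at 146, 150 and 163 CPM in si-SRSF11. It rose by 0.27 on the log2 scale without overlap (SE 0.05, adjusted p = 0.00046). Its partner PSME2 (chr14:24143362-24147570) was at 55.7, 52.0 and 51.6 CPM in si-NC and at 46.5, 59.7 and 51.3 CPM in si-SRSF11. The si-SRSF11 libraries of PSME2 lay on both sides of si-NC, and the log2 fold change was -0.02 (95% interval -0.17 to 0.14). The ratio of PSME1 to PSME2 counts, chosen after these values were seen, was 2.38 ± 0.18 in si-NC and 2.94 ± 0.37 in si-SRSF11 (SD, n = 3). The ranges overlapped, and an exact two-sided permutation test gave p = 0.20, where 0.10 is the smallest that 3 against 3 allows. PSME4, the activator PA200, was at 47.5, 57.5 and 54.4 CPM in si-NC and at 58.4, 60.5 and 56.1 CPM in si-SRSF11 (log2 fold change 0.13, adjusted p = 0.15). The 4 activator genes summed to 367 ± 7.08 CPM in si-NC and 427 ± 10.8 CPM in si-SRSF11, which is 16.4% higher and without overlap. Most of this came from the called PSME1 (mean 126 to 153 CPM) and PSME3 (134 to 163 CPM). The means of PSME2 went from 53.1 to 52.5 CPM and those of PSME4 from 53.1 to 58.3 CPM. PSMF1, a regulator that binds the core, had a log2 fold change of 0.05 (adjusted p = 0.44).

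All 7 PSM-named chaperone genes had a negative log2 fold change, and 2 of them passed the test, while 7939 of the 15801 tested genes had a positive one. POMP and PAAF1, assembly factors outside the naming rule, had positive log2 fold changes of 0.18 each. PSMG4 (chr6:3231403-3303373), which with PSMG3 helps to assemble the α ring, was at 30.8, 31.3 and 33.5 CPM in si-NC and at 24.55, 25.8 and 26.5 CPM in si-SRSF11. It fell by 0.32 on the log2 scale (SE 0.08, adjusted p = 0.0034), to 80.3% of the si-NC level, with no overlap. PSMD5 (chr9:120815496-120842984), a chaperone of the base, was at 77.7, 70.1 and 68.9 CPM in si-NC and at 61.6, 63.5 and 67.0 CPM in si-SRSF11. Its log2 fold change was -0.17 (SE 0.06, adjusted p = 0.036), and the call was lost without si-NC replicate 1 or 2 or si-SRSF11 replicate 1 or 2, at adjusted p up to 0.24, and with DESeq2. PSMG1, PSMG2 and PSMG3 had log2 fold changes from -0.10 to -0.04, and PSMD10, also known as gankyrin, was at -0.12. PSMD9, at -0.14, had the lowest level per length of the activators and assembly factors, 2.24 CPM per kb, and PSME1 the highest, 78.4 CPM per kb. The direction of PSMG1 turned to 0.05 without si-NC replicate 1. Summed levels were 122 ± 7.91 against 110 ± 4.04 CPM for the 3 base chaperones, without overlap, and 228 ± 6.77 against 212 ± 8.09 CPM for the 4 core chaperones, with overlap (SD, n = 3). Most of the base chaperone difference came from the called PSMD5, with means of 72.2 and 64.0 CPM. The core chaperone sums did not overlap with library size scaling (a difference of -9.12%) or upper-quartile scaling (-7.43%).

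PSMC3IP, which is no proteasome subunit, was at 15.5, 13.8 and 14.6 CPM in si-NC and at 9.14, 13.2 and 11.7 CPM in si-SRSF11. Its log2 fold change was -0.37 (SE 0.12, adjusted p = 0.031), the lowest of the 45 tested names. The call was lost without si-NC replicate 1, si-NC replicate 3 or si-SRSF11 replicate 1 and with DESeq2. Reads from the overlapping gene MLX on the opposite strand, which covers 29.9% of its exon bases, cannot be told apart, since the library kit does not mark strand. The calls of PSMD1, PSMD3, PSME1, PSME3, PSMA3 and PSMG4 held whichever of the 6 libraries was left out and also in 8 of 8 other settings. None of these settings addressed overlap with genes on the opposite strand. PSMG4 shares 13.3% of its exon bases with SLC22A23 (416 to 467 counts) and 1.67% with TUBB2B. PSME3 shares 5.82% with BECN1, and PSMD1 shares 10.8% with HTR2B, which had at most 1 count.

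Levels per length differed widely within the core. The highest was PSMA7, at 170 CPM per kb of exon, and the lowest was PSMA2, at 0.453 CPM per kb, although both subunits are present in equal numbers in each core. The length is that of all annotated exons merged, 1750 bases for PSMA7 and 5336 for PSMA2, so long annotation lowers the value per kb. Among the 17 cap genes the range was narrower, from 4.55 CPM per kb in PSMC6 to 65.1 CPM per kb in PSMD8. The 4 lowest tested core genes were PSMA2, PSMA6, PSMB10 and PSMA1, at 0.453 to 5.34 CPM per kb, below the 16.6 to 170 CPM per kb of the other 11. These same genes have 97.1% (PSMA2), 70.4% (PSMA6), 58.3% (PSMB10) and 88.6% (PSMA1) of their coding bases inside exons of another annotated gene. The only other member above 50% was PSMD9, at 58.7%, while 34 members shared no coding base. Low levels also occurred with little or no sharing. Outside the core, PSMC6 (0% shared) was at 4.55 CPM per kb and PSMG4 (6.0% shared) at 2.76 CPM per kb, both below PSMA1. All 58735 identifiers and lengths of the table belong to the GENCODE 29 annotation. There, the partner of each of the 5 genes above 50% is a readthrough gene on the same strand. Such a gene joins the exons of a pair of neighbours. To show what is shared, the first stretch of 60 coding bases that also occurs letter for letter in a transcript of the readthrough gene is printed for 3 α subunits, with the start codon in capitals where the stretch holds it.

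PSMA2, shared with AC010132.3: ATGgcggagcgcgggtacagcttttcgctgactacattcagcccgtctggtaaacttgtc
PSMA1, shared with AC018523.2: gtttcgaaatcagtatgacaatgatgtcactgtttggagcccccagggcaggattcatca
PSMA6, shared with AL121594.1: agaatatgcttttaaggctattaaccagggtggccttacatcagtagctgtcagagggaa

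A read inside such a stretch fits both genes equally. AC018523.2 had 0 counts in every library, AC010132.3 had 0 or 1, and AL121594.1 had 0 to 2. AC040162.1, the partner of PSMB10, had 9 to 37 counts. Per kb of exon that no other gene shares, the 4 core genes were at 0.611 to 7.08 CPM, below the other 11. That exon leaves out most of their coding bases, so this value cannot decide the part of the overlap. Across the table, 635 of 1583 protein-coding genes with more than 50% of their coding bases shared passed the filter on low counts (40.1%), against 12135 of 18368 of the others (66.1%). This comparison took overlap on either strand and did not set readthrough genes themselves apart, so it does not show what overlap does to counts. How reads that fit several genes were counted is not given in the sources used here, and the part of this overlap in the low levels was not tested. The fold changes of these 5 genes rest on the reads that were counted. Without the 4 core genes 2 of 11 core genes were called, beside 24.6% of all tested genes. PSMC1 shares 47.7% of its coding bases with NRDE2 on the opposite strand, and reads from the pair cannot be told apart. Processed pseudogenes took little: the 31 PSM-named pseudogenes outside chromosome Y had 284 counts over the 6 libraries, 0.0640% of the 443966 counts of the members.

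**Figure D3:**
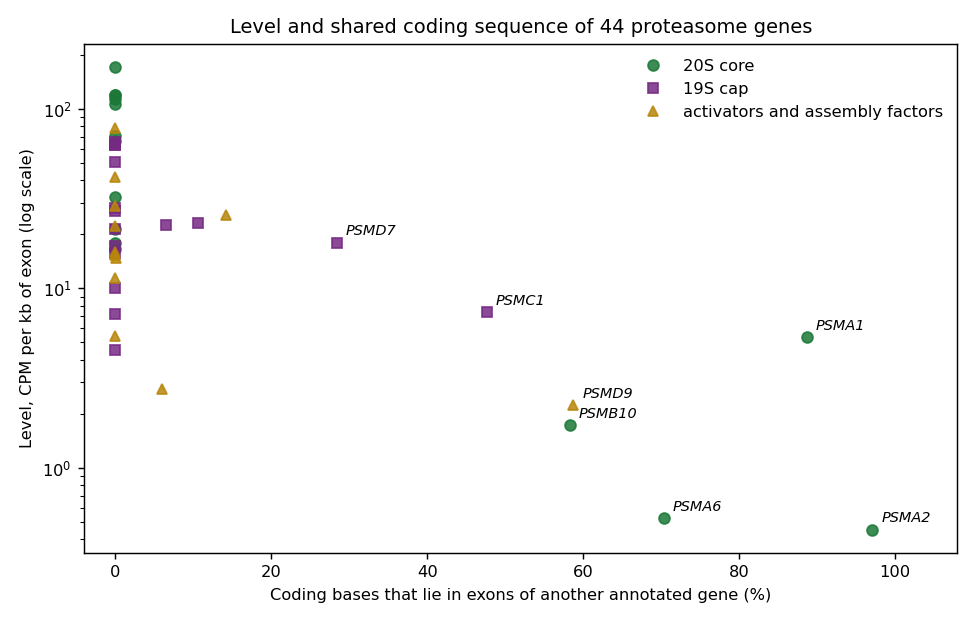
Level of 44 tested proteasome genes over all 6 libraries, in CPM per kb of exon on a log scale (vertical axis), against the percentage of their coding bases that lie in exons of another annotated gene (horizontal axis). PSMA2, PSMA1, PSMA6, PSMB10 and PSMD9, the 5 genes beyond 50%, have levels of 0.453 to 5.34 CPM per kb. PSMC6 (4.55 CPM per kb, 0% shared) and PSMG4 (2.76 CPM per kb, 6.0% shared) lie in the same range.

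The other genes of the pathway, a list of 24 chosen with earlier results known, had 8 called (33.3%, against 24.6% of all tested genes), 4 higher and 4 lower, with a median log2 fold change of 0.03. With library size scaling 3 were higher and 6 lower, and the median was -0.0011, beside -0.033 over all tested genes. NFE2L1, the transcription factor of proteasome genes, was at 327, 317 and 325 CPM in si-NC and at 280, 293 and 275 CPM in si-SRSF11. It fell by 0.19 on the log2 scale (SE 0.05, adjusted p = 0.0038), without overlap. Among its processing factors, the unfoldase VCP rose by 0.28 (adjusted p = 9.4e-05), from 301 ± 7.22 to 364 ± 2.10 CPM (SD, n = 3), while NGLY1, SYVN1 and the protease DDI2 were not called. DDI2, at a log2 fold change of 0.19 and an adjusted p of 0.055, was called higher without si-NC replicate 2 or si-SRSF11 replicate 3, at adjusted p down to 0.0098.

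UBB and RPS27A, which encode ubiquitin, and UBA1 and UBA6, which encode enzymes that activate it, had log2 fold changes from -0.04 to 0.10 and were not called. UBB, with 56.2% of its coding bases shared with another gene, was called higher by edgeR without si-SRSF11 replicate 1 (adjusted p = 0.031).

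Shuttle factors carry tagged proteins to the cap. UBQLN1 fell by 0.23 on the log2 scale (adjusted p = 0.00071), from 216 ± 3.38 to 184 ± 1.43 CPM (SD, n = 3). RAD23B, UBQLN2 and UBQLN4 were not called.

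Of the factors bound to the proteasome, ADRM1, a second ubiquitin receptor of the cap, was at 139, 137 and 147 CPM in si-NC and at 110, 121 and 125 CPM in si-SRSF11. It fell by 0.25 on the log2 scale (SE 0.05, adjusted p = 0.0015), with 29.6% of its coding bases shared with another gene. AKIRIN2, which is needed for nuclear import of proteasomes, was at 87.4, 80.3 and 89.7 CPM in si-NC and at 74.2, 70.0 and 62.9 CPM in si-SRSF11, and fell by 0.31 (SE 0.06, adjusted p = 0.00071). UBE3C, a ubiquitin ligase that binds the cap, rose by 0.26 (adjusted p = 0.00035), from 154 ± 3.34 to 185 ± 8.10 CPM (SD, n = 3). SEM1, a small lid subunit whose symbol lies outside the naming rule, was at 39.9, 37.9 and 40.3 CPM in si-NC and at 38.8, 59.9 and 56.2 CPM in si-SRSF11. The groups overlapped because si-SRSF11 replicate 1 was at the si-NC level, and the call (log2 fold change 0.39, SE 0.10, adjusted p = 0.0069) was lost without si-SRSF11 replicate 2. POMP, the maturation factor of the core, was at 127, 128 and 125 CPM in si-NC and at 135, 137 and 158 CPM in si-SRSF11. It rose by 0.18 (SE 0.06, adjusted p = 0.021), and was called in 2 of the 6 fits that left out a library, with a log2 fold change of 0.10 without si-SRSF11 replicate 3. The call was also lost without any one of the si-NC replicates and with library size scaling. PAAF1, UCHL5, USP14, TXNL1, ECPAS and ZFAND5 were not called.

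**Figure D4:**
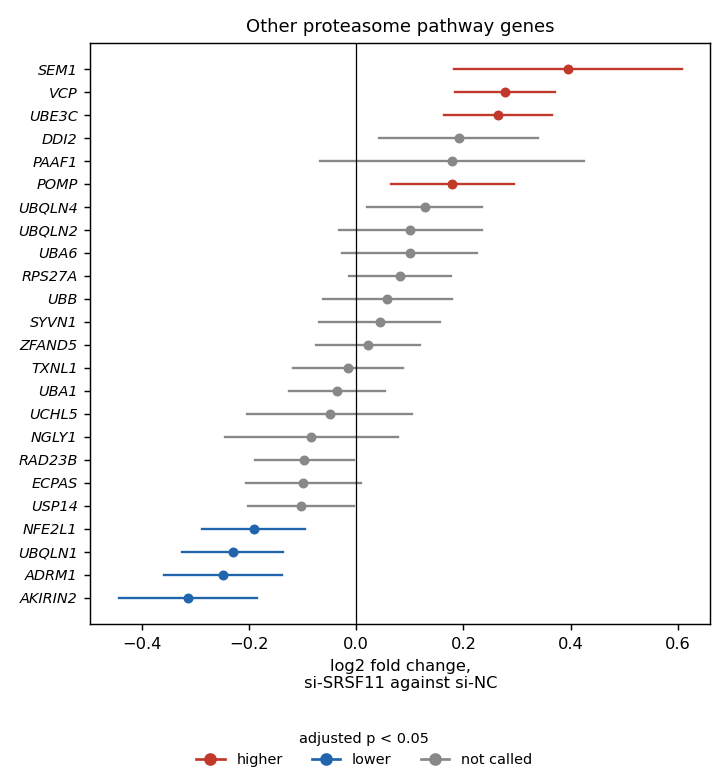
Log2 fold change of the 24 other pathway genes in si-SRSF11 against si-NC (horizontal axis), with 95% confidence intervals; red marks the 4 genes called higher and blue the 4 called lower. SEM1 is the highest and has the widest interval of the called genes, and AKIRIN2 is the lowest.

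NFE2L1 belongs to the factors that bind antioxidant response elements, so the 250 bases before each annotated start (RefSeq, GRCh38.p14) were searched on both strands for their core, TGACNNNGC. RefSeq windows were at hand for 40 of the 46 proteasome genes, 7 of them with more than 1 window. The core was present in 12 of 48 member windows (25.0%) and in 10.9% of all 35116 windows. By gene, 4 of the 10 called members with a window and 8 of the 28 members that were tested and not called held it, beside 3609 of 27305 genes in the RefSeq table (13.2%). Below are the surroundings of the match, in capitals, for 3 of the 4 called members that held it, 1 each from the activators, the cap and the assembly factors, and PSMA4 was the other.

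PSME1 (chr14:24136068-24136156, + strand): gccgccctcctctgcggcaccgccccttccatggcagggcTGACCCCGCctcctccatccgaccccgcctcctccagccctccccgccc
PSMD3 (chr17:39980730-39980806, + strand): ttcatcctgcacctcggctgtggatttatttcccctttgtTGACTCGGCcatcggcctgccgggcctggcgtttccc
PSMD5 (chr9:120843008-120843096, - strand): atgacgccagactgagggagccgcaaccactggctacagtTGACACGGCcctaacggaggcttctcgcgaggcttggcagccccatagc

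PSME1 and PSMD3 rose and PSMD5 fell, so the letters occur before genes called in both directions. The windows of PSMD1, PSMD2, PSMA3, PSMC6 and PSME3, which rose, and of PSMG4, which fell, held no match. A match is a description of the letters in these windows and was not tested for binding.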

How the data were processed

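RNA-seq counts of 6 LoVo libraries were used, 3 per condition, grouped by their labels. The authors deposited raw gene counts in 1 table, with no normalization. The submitters' notes name the build hg38, and the aligner and the counting program are not given in the sources used here. The 15801 genes that reached 10 counts in 3 or more libraries were kept. After TMM scaling, the quasi-likelihood test of edgeR 4.0.16 (R 4.3.3) was run on condition alone, with Benjamini-Hochberg adjustment over these genes. The fit was tested on simulated data. Alternatives were DESeq2 1.42.0, other scalings and filters, a fit of protein-coding genes alone, a replicate block, and fits that each lacked 1 library. The members and gene lists were chosen with earlier results of these data known, and some genes of the pathway list are not reported here.

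Levels per kb used the exon lengths of the table, and overlaps used the GENCODE 29 exons. The named genes were SRSF11, members and pathway genes with an adjusted p under 0.05, the catalytic subunits, PSMD2, PSMD4, PSMD14, PSME1 to PSME4, NFE2L1, POMP and the highest and lowest level per length in each class. The other members are named once, and other pathway genes and partner genes were named after their values were seen. Chi-square over degrees of freedom was 2.08 to 5.42 within groups, so no library repeated another. Totals of 14369525 to 16685719 counts leave genes with under 100 counts, such as PSMA2 and PSMB10, with wide intervals. Intervals are those of the edgeR fit.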

Additional observations from a re-analysis of the deposited data

How the results depend on the processing

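The number of members called was 11, and 7 with DESeq2, 0 with an absolute log2 fold change over 1 as a further limit, and 6 to 10 when 1 library was left out, lowest without si-NC replicate 1 (6) and si-NC replicate 3 (7). Of the 20S core genes, 2 were called, and 1 with upper-quartile scaling, DESeq2 size factors, no filter on low counts, protein-coding genes alone or DESeq2, and 1 to 2 with a library left out (2 only without si-SRSF11 replicate 1). The 19S cap had 4 calls, and 2 to 5 with a library left out. The cause was not tested.

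Directions turned in members that were not called. PSMB5 was at -0.028 with library size scaling, -0.0011 with upper-quartile scaling, -0.0042 with protein-coding genes alone and -0.044 to 0.063 with a library left out. PSMB7 was at -0.034, -0.0071 and -0.010 in the same order of settings, -0.0047 with DESeq2 size factors in edgeR, -0.0055 with no filter, -0.0029 with DESeq2 and -0.019 to 0.023 with a library left out. Leaving out a library gave -0.069 to 0.028 for PSMB6, -0.0050 to 0.54 for PSMB10, -0.12 to 0.059 for PSME2 and -0.070 to 0.051 for PSMA7.

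Deviations of log2 CPM from the group mean correlated at 0.015 to 0.040 between si-NC and si-SRSF11 samples with the same replicate number. Between different numbers these deviations correlated at -0.034 to -0.0031. Each sample went best with its own number, but every correlation was small. Taking deviations from the group mean pushes the values for different numbers down when the others are positive, so they are no separate sign of pairing. The main fit used condition alone. With the replicate block 12 members, 9 of the other pathway genes and 4036 genes of the table were called, the added calls being PSMD4 (lower) among the members and DDI2 (higher) in the pathway. The summed level was higher in si-SRSF11 by 2.49% for the core, 4.49% for the cap and 4.32% for activators and assembly factors, by 0.0454%, 2.01% and 1.85% with library size scaling, where the last then overlapped between groups, and by 1.92%, 3.91% and 3.73% with upper-quartile scaling.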
